A study of Mus musculus with 15 samples.

Results

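The CLC proteins are a family of chloride channels and chloride/proton exchangers, and 5 of their genes, Clcn2, Clcn3, Clcn4, Clcn6 and Clcn7, were followed here by allele. They were taken by name from the 44260 genes of a table of day 12 mouse organoids. The genes were selected on their B6 and Spret values in these libraries, in particular those of Clcn4, so these values are given as a description and support no test of their own, although the genes were part of the fit across the whole table. The organoids were derived from epiblast stem cells of SpretB6 lines, hybrids with 1 genome from the laboratory strain C57BL/6J (B6) and 1 from Mus spretus (Spret), and model the developing cerebral cortex. No treatment or age is labelled. There were 3 libraries, each with a B6 and a Spret value for every gene, and the 12 induced pluripotent stem cell samples of the series were not analysed here. The labels title the libraries C1, C2 and C3 (libraries 1, 2 and 3) and do not say whether these came from separate cultures, so the spread between them may be technical in part. Every number called a value is a normalised read number assigned to an allele by the authors, rounded to a whole number.

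CLC proteins work as dimers in which each subunit has its own path for chloride. Clcn2 encodes ClC-2, a chloride channel of the plasma membrane found in neurons and glia. Clcn3 and Clcn4, with the X-linked Clcn5, encode a closely related group of exchangers that pass chloride against protons across endosomal membranes, and ClC-4 is known to pair with ClC-3. Clcn6 encodes an exchanger of late endosomes in neurons, and Clcn7 the exchanger of lysosomes, which needs the partner protein Ostm1. Clcn4 is also a textbook exception in genome evolution. It lies on chromosome 7 in C57BL/6J but on the X chromosome in Mus spretus, as it does in most other placental mammals.

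In mm10 coordinates, from the GENCODE M21 annotation, Clcn4 spans chr7:7282309-7300851 on the minus strand. Clcn3 lies at chr8:60910389-60983300 (minus strand), Clcn6 at chr4:148004259-148038821 (minus strand), Clcn7 at chr17:25133391-25162104 (plus strand) and Clcn2 at chr16:20702964-20717746 (minus strand). The coding sequences show how far reads of Clcn4 can be told from those of its relatives. Over aligned coding bases Clcn4 matched Clcn5 at 72.2% and Clcn3 at 70.8%, and Clcn7, Clcn6 and Clcn2 at 55.2%, 53.2% and 53.0%. The stretch where Clcn4 and Clcn3 were most alike, around their longest shared run of 26 bases, is printed for the 3 endosomal exchangers, from GENCODE M21 transcripts and 5′ to 3′ on the coding strand. It lies in exon 9 of 13 of Clcn4 (chr7:7291792-7291881), exon 9 of 14 of Clcn3 (chr8:60929452-60929541) and exon 11 of 15 of Clcn5 (chrX:7165958-7166047), all on the minus strand. Capitals mark bases that differ from Clcn4.
Clcn4: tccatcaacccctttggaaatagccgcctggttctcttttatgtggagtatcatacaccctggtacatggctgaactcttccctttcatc
Clcn3: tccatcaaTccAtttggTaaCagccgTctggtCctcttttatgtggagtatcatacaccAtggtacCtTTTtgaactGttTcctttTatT
Clcn5: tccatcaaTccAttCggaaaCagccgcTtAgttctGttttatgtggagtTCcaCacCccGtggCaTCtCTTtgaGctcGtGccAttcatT
Of these 90 bases, 15 differed from Clcn4 in Clcn3 and 23 in Clcn5. None of the 9054 different 50-base runs in the annotated Clcn4 transcripts was found on the same strand in a transcript of another gene, among 141767 transcripts searched. On the opposite strand, 892 of them were found in Gm45631, an antisense RNA gene inside Clcn4. These sequences are those of the B6 reference, and the read length and Spret sequence were not used here.

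Clcn4 was read from the B6 allele alone. The B6 values were 858, 773 and 832 in libraries 1, 2 and 3, a mean of 821 ± 43.6 (SD, n = 3), and the Spret value was listed at 0 in each library. All 3 libraries therefore showed the same pattern, and the B6 and Spret values did not overlap. The table gives no unrounded reads, so no fold is stated against a value of 0. Among 15456 autosomal genes with a mean of at least 10 over the 6 allele columns, the B6 range lay wholly above the Spret range in 16.8%. A Spret value of 0 in all 3 libraries was much rarer, at 0.0259% of these genes (4 genes, Clcn4 included). Clcn4 was chosen on these values, so the share only describes it. A gene at 0 from Spret could pass that filter only through its B6 values.

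Clcn3, the nearest autosomal relative of Clcn4, was read from both alleles. Its B6 values were 379, 366 and 415 and its Spret values 362, 327 and 464. B6 was higher in libraries 1 and 2, Spret was higher in library 3, and the ranges overlapped. The B6 allele supplied 50.4% ± 2.88 of the values (SD, n = 3), and the log2 ratio of Spret to B6, taken as log2(value + 1), was -0.02 ± 0.17. Its sign depends on scaling and on the libraries used, at 0.10 when each library was centred on its median autosomal ratio and 0.05 without library 2.

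Clcn6, the late endosomal exchanger, was close to equal. Its B6 values were 288, 283 and 418 and its Spret values 280, 306 and 428, with 49.4% ± 1.33 from B6. Library 3 was the highest for both alleles, and the Spret value was the higher one in libraries 2 and 3. The log2 ratio was 0.04 ± 0.08 and, without library 2, 0.00 to 2 decimals.

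Clcn7, the lysosomal exchanger, read 65, 69 and 92 from B6 and 61, 63 and 71 from Spret. The Spret value was the lower one in 3 of 3 libraries, but the ranges overlapped, and 53.4% ± 2.63 came from B6. The log2 ratio was -0.20 ± 0.15. A lower Spret value in every library is common here, seen in 36.8% of autosomal genes.

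Clcn2, the plasma membrane channel, read 113, 78 and 129 from B6 and 104, 56 and 112 from Spret. Here too the Spret value was the lower one in each library, with overlapping ranges. Library 2 was the lowest for both alleles, and 54.6% ± 3.21 of the values came from B6. The log2 ratio was -0.26 ± 0.18.

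**Figure D1:**
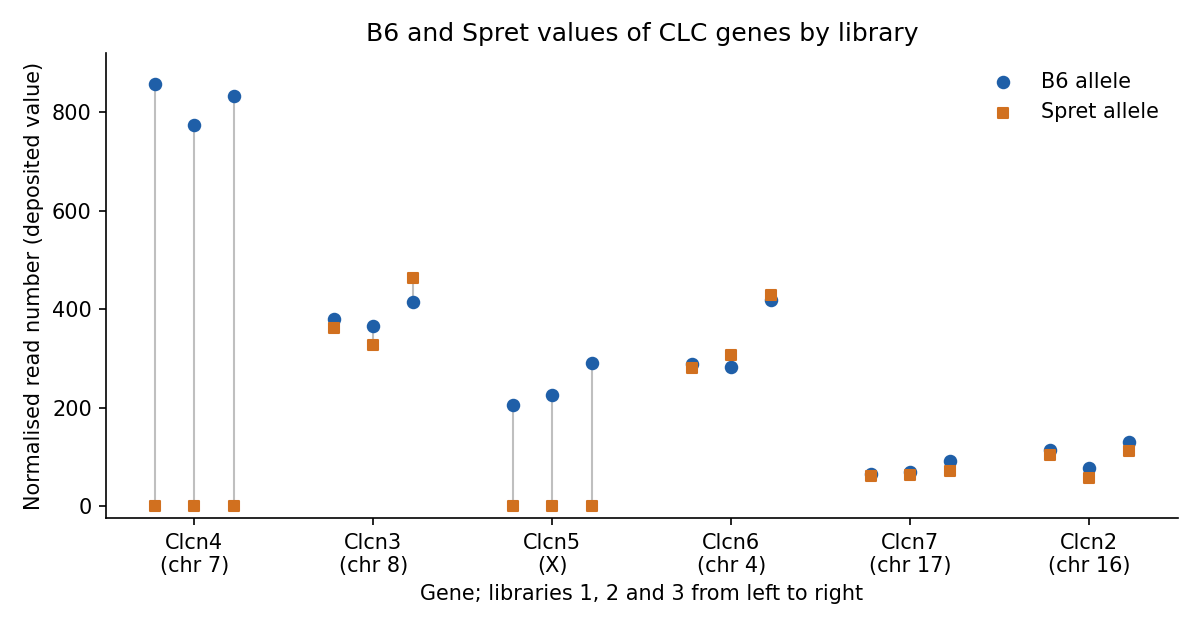
Deposited normalised read numbers (vertical axis) of the B6 allele (circles) and the Spret allele (squares) of 6 CLC genes, with libraries 1, 2 and 3 from left to right within each gene and a line joining the alleles of a library. Clcn4 and the X-linked Clcn5 stand at 0 for Spret in every library, while both alleles of Clcn3, Clcn6, Clcn7 and Clcn2 lie close together.

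The ratios of the 4 paralogs ranged from -0.26 to 0.04. All 4 lay between the quartiles of autosomal genes, -0.42 and 0.13, around a median of -0.13. By limma, 1 of the 5 genes, Clcn4, passed an adjusted p of 0.05, where 28.4% of tested autosomal genes and 30.4% of all tested genes did (22.8% toward B6 and 7.56% toward Spret). The choice of genes used this contrast, so nothing is read from that count. Summed over Clcn2, Clcn3, Clcn6 and Clcn7, the B6 share was 51.2%, 51.4% and 49.5% in libraries 1, 2 and 3. With Clcn4 added it was 67.8%, 67.6% and 63.7%. Clcn4 made up 47.9% ± 3.34 of the B6 values of the 5 genes (SD, n = 3), a share of reads that is not corrected for length.

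**Figure D2:**
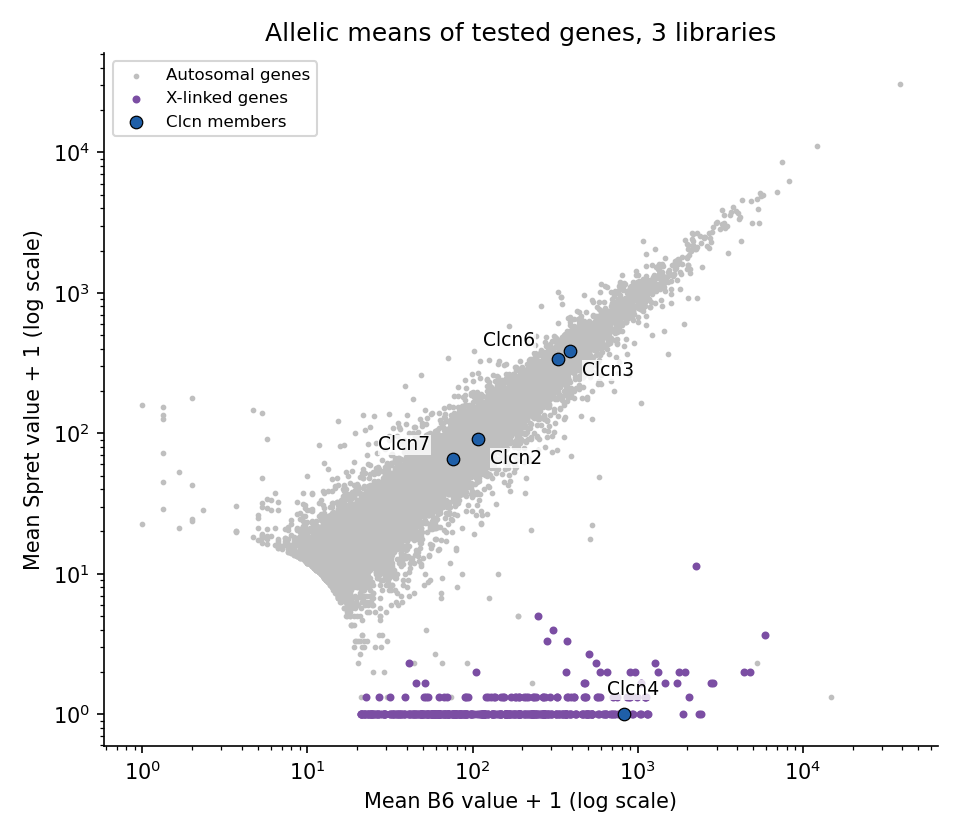
Mean B6 value + 1 against mean Spret value + 1 over 3 libraries, both on log axes, for all tested autosomal genes (grey), X-linked genes (purple) and the 5 Clcn genes (blue). Clcn2, Clcn3, Clcn6 and Clcn7 lie within the autosomal cloud, and Clcn4 lies at a Spret value of 0 among the X-linked genes.

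X-linked genes were read from B6 in these cells. Spret supplied 0.100%, 0.0937% and 0.0883% of the X-linked values in libraries 1, 2 and 3, against 47.7% to 47.9% of autosomal values. Of 438 tested X-linked genes, 349 were listed at 0 from Spret in every library (79.7%). All 5 tested Y-linked genes were higher from Spret in 3 of 3 libraries. The values are those of cells with a B6 X and a Spret Y. In such cells B6 is the maternal copy of each autosome. For genes that are autosomal in both species, an effect of the strain therefore cannot be told apart from one of the parent of origin. Clcn4, which lies on the X chromosome in Mus spretus, is not counted among them.

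Clcn5, the X-linked endosomal exchanger, gave the same picture as Clcn4. Its B6 values were 206, 225 and 290, a mean of 240.3 ± 44.0 (SD, n = 3), and it was listed at 0 from Spret in each library. Of the 3 closely related exchangers, 1, Clcn3, therefore had values from both alleles. In C57BL/6J, genes at the far end of the X include some, such as Mid1 and Hccs, whose human counterparts lie near CLCN4. Of 17 genes listed from that end, 12 were tested, and 10 of these were at 0 from Spret in all libraries. The exceptions were Tmsb4x, an actin-binding peptide, with Spret values of 10, 8 and 13 against 2450, 2441 and 1874 from B6, and Gpm6b, a neuronal membrane protein, with 1, 0 and 0 against 2029, 1753 and 2347. Rab9, the third most abundant, a GTPase of late endosomes, read 228, 202 and 204 from B6 and was at 0 from Spret.

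The genes whose 6 values were most like those of Clcn4 were X-linked. Likeness was measured as the Euclidean distance of log2(value + 1) over the 6 allele columns, and all of the nearest 100 genes were on the X. These columns include the Spret values of 0 for which Clcn4 was chosen. Among tested genes, 349 X-linked ones and 4 autosomal ones, Clcn4 included, were at 0 from Spret in all 3 libraries. That the nearest genes are X-linked thus follows from those values and is no separate evidence. The closest was Wdr13, a WD repeat protein, with B6 values of 826, 827 and 753 and a distance of 0.182. Armcx4, Thoc2, Sh3bgrl and Gnl3l followed, at 0.310, 0.352, 0.360 and 0.377. Each of these 5 genes was listed at 0 from Spret in all 3 libraries. The nearest autosomal gene, the small nucleolar RNA gene Gm24727 on chromosome 8, ranked 149th at a distance of 3.38. It read 247, 160 and 247 from B6 and was at 0 from Spret. The antisense gene Gm15564, the cyclin-interacting protein gene Ccnb1ip1, Gm45631 and the noncoding RNA Gm28872 came next among autosomal genes, at 3.88, 5.14, 5.17 and 5.51. Of these, Gm45631 was at 0 from Spret in every library.

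Across tested autosomal genes, the 4 listed at 0 from Spret in all 3 libraries were Clcn4, Gm45631, Gm24727 and Tpm3-rs7. This set was named after its values were seen. Clcn4 was the most abundant of them, and Tpm3-rs7, a copy related to the tropomyosin gene Tpm3, was the least, at 31, 15 and 15 from B6. A further gene without a position, BX322656.1, also read 0 from Spret. Gm45631 lies within Clcn4 (chr7:7295766-7297137, plus strand) and read 110, 88 and 112 from B6. Of its 1244 exon bases, 985 (79.2%) fall inside annotated exons of Clcn4. Since the use of strand in counting is not given, reads of Clcn4 and Gm45631 cannot be told apart over those bases.

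The neighbours of Clcn4 on the reference chromosome 7 were read from both alleles. Within 1 Mb there were 49 other genes in the table, of which 20 were tested. The 19 outside Clcn4 had values above 0 from both alleles in all 3 libraries, with mean B6 shares from 35.4% to 74.9%, and all of them lay on its side of lower coordinates. The nearest tested gene was Zfp418, a zinc finger gene 98.7 kb away, with 69.7 ± 9.81 from B6 and 57.3 ± 5.51 from Spret (SD, n = 3) and 54.8% from B6. Zfp954, also a zinc finger gene, stood at 56.1% from B6 at 161 kb. Usp29, a deubiquitinase gene, and Peg3, an imprinted zinc finger gene, stood at 48.5% and 47.4%, Zim1, imprinted in the same cluster, at 44.2% and the olfactory receptor gene Olfr1349 at 35.4%. By limma none of these 6 genes passed the threshold (adjusted p = 0.255, 0.109, 0.444, 0.247, 0.138 and 0.116), but Peg3 and Zim1 passed as higher from Spret with centred ratios (0.0342 and 0.0468), and Olfr1349 without the intensity trend (0.0367). Without library 3 the ratio of Peg3 went from 0.15 to -0.07 and that of Usp29 from 0.09 to -0.08. Limma called 28.4% of all tested autosomal genes in either direction. Of the 19, it called 3, with 1 higher from B6, Zfp28 (log2 ratio -1.57 ± 0.16, SE, adjusted p = 2.5e-06), and 2 from Spret. Those 2, Zfp78 (0.60 ± 0.16, adjusted p = 0.0118) and the small RNA gene Gm27675 (0.43 ± 0.15, adjusted p = 0.0367), each lost the call without library 1, without library 3 and without the library term. Both also lost it without the intensity trend (adjusted p = 0.0656 and 0.190) and with no filter on low values (0.138 and 0.334). On the whole of chromosome 7, 1 of 1315 tested genes other than Clcn4 was listed at 0 from Spret in all libraries, and that gene was Gm45631. Whether the X-linked place of Clcn4 in Mus spretus accounts for its Spret value of 0 was not tested, as no genome of that species was used here.

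**Figure D3:**
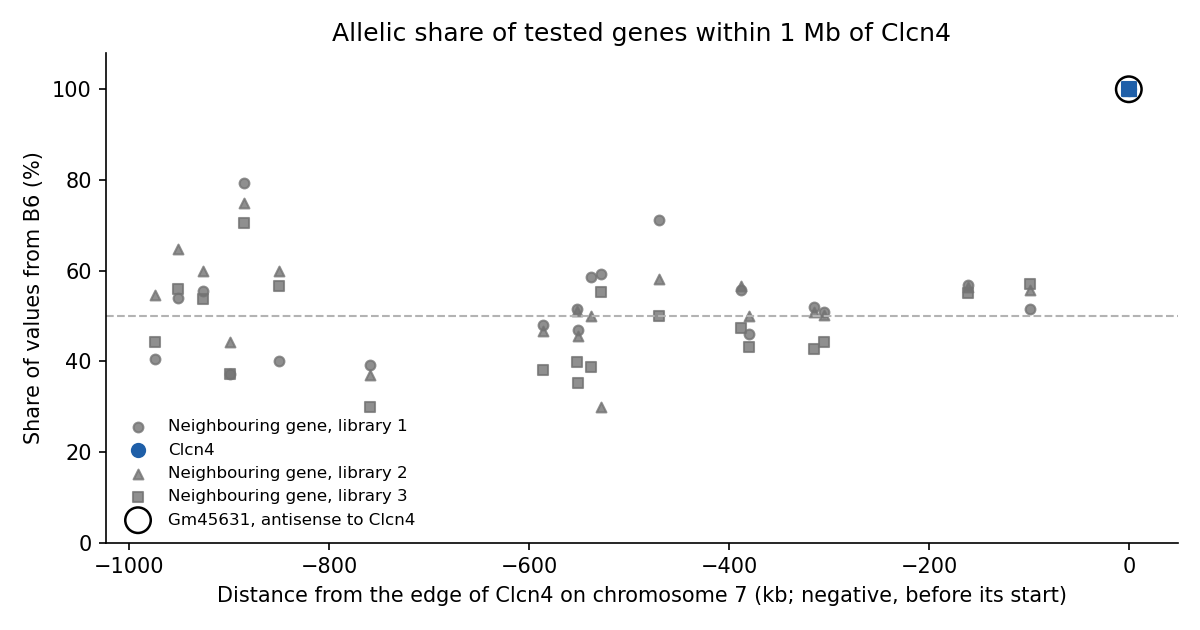
Share of values from B6 in percent (vertical axis) for tested genes within 1 Mb of Clcn4 against their distance from its edge in kb, with a marker per library and a dashed line at equal shares. Clcn4, and the antisense gene Gm45631 ringed on top of it, stand at 100%, while the 19 other genes keep both alleles, with mean shares from 35.4% to 74.9%.

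Summed over both alleles, Clcn4 stood at 858, 773 and 832 normalised reads, Clcn3 at 741, 693 and 879, Clcn6 at 568, 589 and 846, Clcn2 at 217, 134 and 241 and Clcn7 at 126, 132 and 163. Library 3 was the highest for all of them but Clcn4, and library 2 the lowest for Clcn2, Clcn3 and Clcn4. The sum over all genes was also highest in library 3 and lowest in library 2. After scaling to equal library sums, library 3 was the highest for Clcn3 and Clcn6 only, and library 2 the lowest for Clcn2 only. In bulk RNA, fewer cells of a type and less RNA per cell cannot be told apart in such levels. Scaled to equal library sums, Clcn3 varied by 2.87% between libraries (SD over mean), Clcn7 by 8.48%, Clcn4 by 8.57%, Clcn6 by 14.0% and Clcn2 by 19.6%.

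Per kb of annotated exon, Clcn6 had the highest summed level at 113 ± 26.1 normalised reads (SD, n = 3), followed by Clcn4 at 95.7 ± 5.08, Clcn3 at 45.2 ± 5.66, Clcn2 at 32.8 ± 9.32 and Clcn7 at 26.5 ± 3.75. The ranges over libraries of Clcn6 and Clcn4 overlapped, as did those of Clcn2 and Clcn7. Clcn4 did not overlap Clcn3 and Clcn3 lay just above Clcn2. The single Clcn4 allele thus stood above the B6 allele of Clcn6, at 55.6 ± 12.9 per kb of exon, and that of Clcn3, at 22.7 ± 1.49. The order depends on the length used. Per kb of the transcript with the longest coding sequence, an alternative chosen after seeing the data, Clcn3 led at 185 ± 23.1, overlapping Clcn4 at 178 ± 9.45, and Clcn6 followed at 128 ± 29.8 with a range below that of Clcn4. The summed levels also depend on how many sites tell the alleles apart in each gene, which the table does not give.

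**Figure D4:**
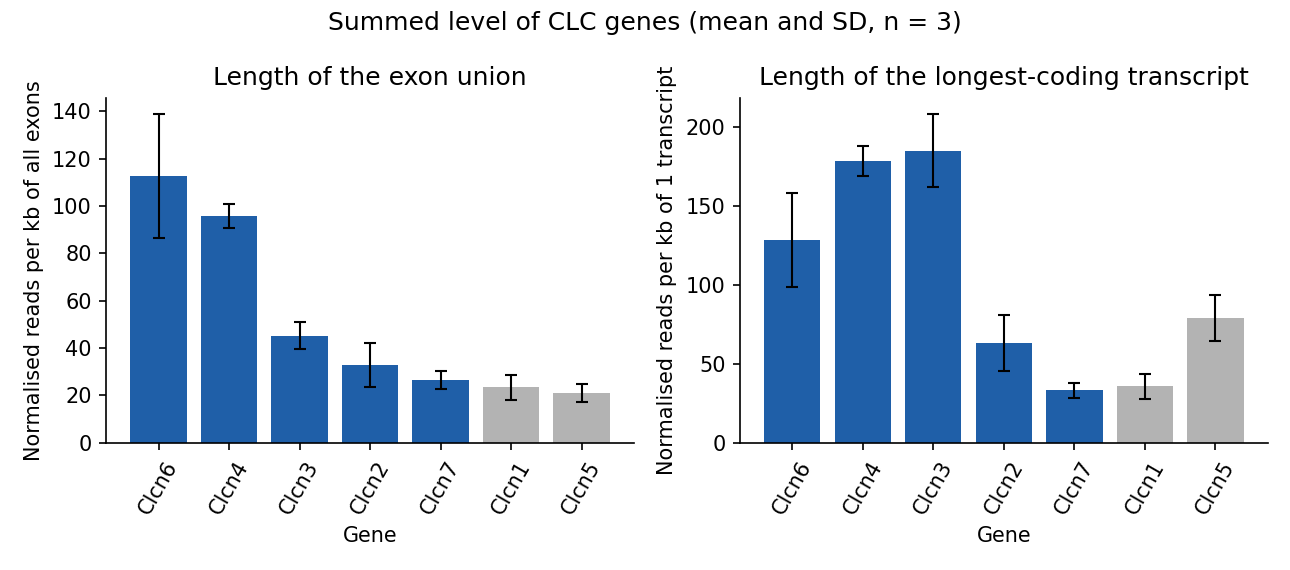
Summed level of 7 CLC genes in normalised reads per kb (bars, mean; error bars, SD; n = 3 libraries), by the length of all exons (left) and of 1 transcript (right), with the 5 genes described here in blue. Clcn6, Clcn4 and Clcn3 are the 3 highest of the 7 with both lengths, in a different order.

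Clcn1, the chloride channel of skeletal muscle, was the other autosomal CLC gene abundant enough to test. It read 60, 51 and 72 from B6 and 54, 55 and 87 from Spret, and limma did not call it (log2 ratio 0.08 ± 0.18, SE, adjusted p = 0.784; -0.02 without library 3). Hepacam, the glial partner of ClC-2, read 7, 10 and 10 from B6 and 9, 13 and 4 from Spret and was too low to test. Ostm1, the partner of ClC-7, read 148, 121 and 139 from B6 and 166, 129 and 170 from Spret and was not called (log2 ratio 0.18 ± 0.11, adjusted p = 0.246). Tmem9 and Tmem9b encode partners of the endosomal exchangers. Tmem9 was not called (-0.05 ± 0.22, adjusted p = 0.894), with a ratio of 0.22 without library 1 and 0.08 when centred, whereas Tmem9b was lower from Spret, with 72, 45 and 111 from B6 and 40, 36 and 53 from Spret (-0.73 ± 0.20, adjusted p = 0.0118). Mlc1, a membrane protein that acts with Hepacam and ClC-2 in glia, was higher from Spret, with 59, 37 and 54 against 47, 14 and 24 from B6 (0.93 ± 0.25, adjusted p = 0.0120). Both calls were limma calls with the same direction in 3 of 3 libraries, where 28.4% of tested autosomal genes were called in either direction. Tmem9b lost its call without library 1 or library 3 (adjusted p = 0.107 and 0.164) and Mlc1 without library 2 or library 3 (0.0621 and 0.0998). Without the library term both were lost (adjusted p = 0.199 and 0.185), as they were without the intensity trend (0.0742 and 0.0777) and with no filter on low values (0.164 and 0.182).

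Most other genes of chloride transport and of endosomal ion balance were not called. The same holds for autosomal genes at large, of which 28.4% were called in either direction. Over 4 lists, 63 autosomal genes were tested, and limma called 19 higher from B6 and 1 from Spret, where 20.7% of autosomal genes were called toward B6 and 7.78% toward Spret. With centred ratios the same 63 genes gave 8 and 7 calls. All 15985 tested genes then gave 2537 toward B6 and 2059 toward Spret. Those counts include 438 tested X-linked genes, which the 63 leave out, and were not taken over autosomal genes alone. The lean toward B6 thus depends on scaling. Centring takes out the median autosomal ratio of each library. The 63 genes had a median of -0.14 and autosomal genes one of -0.13, so a weaker lean follows from the centring itself. Of 21 other chloride channels 9 were higher from B6, among them the intracellular channel protein Clic4 (-0.53 ± 0.08, adjusted p = 0.000233), with a list median of -0.33. Of 13 cation-chloride cotransporters and their kinases 2 were, among them the kinase Oxsr1 (-0.33 ± 0.11, adjusted p = 0.0349), with a median of 0.06. In 19 subunits of the proton pump that acidifies endosomes and lysosomes, 6 were higher from B6, among them Atp6v1g1 (-0.57 ± 0.08, adjusted p = 7.77e-05), and 1 from Spret, Atp6v0c (0.97 ± 0.17, adjusted p = 0.000495), with a median of -0.18. Of 10 endolysosomal channels and transporters 2 were higher from B6, among them the two-pore channel Tpcn1 (-0.66 ± 0.13, adjusted p = 0.00128), with a median of -0.13. Oxsr1 lost its call without library 1, without library 3, with centred ratios, without the library term, without the trend and with no filter (adjusted p from 0.181 to 0.356), and the other calls named here held without each library. Without the library term Clic4, Atp6v1g1 and Tpcn1 lost theirs (adjusted p = 0.147, 0.0723 and 0.0862). Without the intensity trend Clic4 and Atp6v0c did (0.0626 and 0.0533), and with no filter on low values Clic4, Atp6v0c and Tpcn1 did (0.0771, 0.128 and 0.0688). Of the X-linked members of these lists, Wnk3, Atp6ap2 and Lamp2 were read from B6 and listed at 0 from Spret in each library.

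The tissue label names epiblast stem cells, while the table is named for organoids. The 16 forebrain markers summed to 31540, 30732 and 31241 in libraries 1, 2 and 3, with Tubb3 at 3189 ± 89.0 (SD, n = 3), and the 7 stem cell markers to 94, 138 and 47, with Pou5f1 at 57, 63 and 13 and Nanog at 1, 5 and 3. The 12 markers of glia and microglia summed to 522, 639 and 608. The 8 markers of choroid plexus and mesenchyme summed to 2950, 891 and 634, of which Ttr, a choroid plexus gene, held 2555, 534 and 323. None of the markers on these lists was at 0 in every library. The part of such cells in the values of the Clcn genes was not tested.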

How the data were processed

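RNA of 3 SpretB6 organoid libraries was sequenced after ribosomal RNA depletion, per the labels' protocols. The deposited values are a score: allele-specific read numbers normalised by the authors, per the file name, and rounded. In libraries 1 and 2, 14 and 22 whole numbers up to 100 were held by no gene, so they were not treated as counts. Per the submitters' processing notes mm10 was the genome build, and the aligner, allele assignment and counter are not given in the sources used here. Summed values were 5039845, 4502664 and 5666990 in libraries 1, 2 and 3, with the reads behind them unknown, so no counting interval is given. Allelic differences were fitted with limma 3.58.1 in R 4.3.3 on log2(value + 1), in a model of allele plus library with a mean-variance trend, over 15985 genes with a mean of at least 10. The library term pairs the alleles because both come from the same RNA. P-values were adjusted by Benjamini-Hochberg over these genes (threshold 0.05). The fit was tested on simulated data. Positions came from GENCODE M21 (42620 genes) and RefSeq of the same assembly (903), with 737 unplaced. Coding sequences were aligned with Biopython 1.88. The members and lists were chosen with earlier results of these data known. Named genes were CLC genes and partners, in each list the most abundant called gene of either direction, the 6 nearest tested protein-coding neighbours, the 3 most abundant distal X genes and the nearest genes by distance. The alternatives were another pseudocount, other filters, no trend, no library term, centred ratios and leaving out each library. Some genes that the naming rule covers are not reported here.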

Additional observations from a re-analysis of the deposited data

How the results depend on the processing

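The log2 ratio of Clcn6 moved beyond its spread with centred ratios, to 0.16. Called genes over the whole table numbered 4852, 3643 toward B6 and 1209 toward Spret. Dropping the filter left 1236 (1047 and 189), dropping the intensity trend 2229 (1760 and 469) and the count was 1537 (1270 and 267) with no replicate block, the fit that drops the pairing of alleles by library. With centred ratios 2537 were higher from B6 and 2059 from Spret. Leaving out a library gave 2667 to 4001 called genes, 2086 to 3010 toward B6 and 581 to 991 toward Spret. Over the 4 chloride transport and endolysosome lists, 20 calls became 1 with no filter (1 toward B6, 0 toward Spret), 8 without the trend (8 and 0) and 2 with no replicate block (1 toward B6 and 1 toward Spret). Leaving out a library gave 10 to 14 calls, 9 to 13 toward B6 and 1 to 2 toward Spret. With centred ratios 8 were higher from B6 and 7 from Spret. The 2 calls among autosomal CLC partners and other autosomal CLC genes became 0 with no filter, without the trend and with no replicate block, 1 at a mean of at least 50, and 0 to 1 without a library. Around Clcn4, 4 genes were called, 3 outside it and Gm45631 inside it. Gm45631 was called in every setting that tested it. These 4 calls became 2 with no filter and with no replicate block, and 2 to 4 without a library. They were 6 with centred ratios, 5 at a mean of at least 50 and 3 without the trend. The 12 distal X genes became 6 at a mean of at least 50 and 1 at a mean of at least 5 in each allele, where fewer genes were tested. The cause of the other changes was not tested. A value of 0 cannot be turned into a limit on reads, since the reads behind the values are unknown.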
